A study of Mus musculus with 5 samples.

Results

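The 10 genes described here are 9 that carry sodium, potassium or water along the nephron, the tubule that turns filtrate into urine, and Umod, a secreted protein of the distal tubule: Slc12a1, Umod, Kcnj1, Slc12a3, Scnn1a, Scnn1b, Scnn1g, Aqp2, Aqp3 and Aqp1. They were taken by gene symbol from the 32285 genes of the count matrix, all 10 were found, and none was used to assign a cell to a tubule segment. Salt leaves the tubule through the Na-K-2Cl cotransporter Slc12a1 (NKCC2, the target of furosemide) in the thick ascending limb, through the Na-Cl cotransporter Slc12a3 (NCC, the target of thiazides) in the distal convoluted tubule, and through the epithelial sodium channel ENaC, built from Scnn1a, Scnn1b and Scnn1g, in the connecting tubule and collecting duct. Potassium returns to the lumen through Kcnj1 (ROMK), water crosses the proximal tubule and thin limb through Aqp1, and in principal cells it enters through the vasopressin-regulated Aqp2 and leaves through the basolateral Aqp3. Umod encodes uromodulin, the most abundant protein of normal urine and a product of the thick ascending limb.

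The series holds 5 single-cell RNA samples of mouse kidney, 1 each from days 1, 3, 14 and 28 after unilateral ischemia-reperfusion (UIR), a model of acute kidney injury, and 1 from sham-operated animals, in which no clamp was placed. By the study's methods the animals were male C57BL/6J mice aged 6 to 8 weeks, the left renal pedicle was clamped and the right kidney was left intact. The labels state no genotype, and by the labels each sample came from 3 mice. The study's methods speak of more matrices than the deposited file has libraries, so whether the kidneys were combined before or after sequencing could not be told. The deposited matrix merges 5 libraries that carry the barcode suffixes 1 to 5, and no label ties a suffix to a day or to sham. The libraries are therefore named by number only, no condition is compared, and every interval below covers counting error within these libraries and not the spread between animals.

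After cell calling, 57828 cells were kept, with 8292 to 19132 per library and library medians of 4038 to 5324.5 unique molecular identifiers (UMIs, 1 per captured transcript molecule) per cell. Between the libraries, 355 barcodes of kept cells were shared, with 20 to 68 in each pair, against 11.1 to 31.8 if barcodes had been drawn evenly, and every pair was above its own value. The labels call the cell type goblet cell, but 7 goblet markers were each seen in 0 to 0.0640% of cells and Zg16 in 0 of 57828, which allows a share of cells with a UMI of up to 0.00638%. Cells were assigned to segments by textbook markers that exclude the 10 genes. This gave 37736 proximal tubule cells, 565 thick ascending limb (TAL) cells, 256 distal convoluted tubule (DCT) cells, 245 connecting tubule (CNT) cells, 134 principal cells (PC), 89 intercalated cells (IC) and 81 thin limb cells. From library 1 to library 5 there were 101, 70, 314, 24 and 56 TAL cells, 33, 29, 71, 6 and 117 DCT cells, 21, 25, 147, 20 and 32 CNT cells, and 27, 22, 66, 4 and 15 PC. A class is a range on a marker count and not a sharp type. Of the 565 TAL cells, 274 passed with the 2 markers required and no more, and 549 cells outside the proximal class had 1 TAL marker and stayed out. For DCT these numbers were 76 and 388, for CNT 79 and 459, and for PC 49 and 468. The median cell of the TAL, DCT, CNT, PC and IC classes held 3 UMIs of the 6 proximal tubule markers, against 57 in a proximal tubule cell. Library 3 held 6663 of the 10703 cells that passed no gate.

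Levels are given as counts per 1000000 UMIs of a class (CPM) with an exact Poisson 95% interval. They are compared for 1 gene between classes or libraries and not between genes. Free RNA from broken cells was read from barcodes of 10 to 100 UMIs. Its level for Umod was 243 CPM (232 to 254) over all libraries, for Aqp1 94.3 CPM, for Slc12a3 45.0 CPM, for Slc12a1 36.3 CPM, and for the other members between 2.56 and 15.1 CPM. In libraries 3 to 5 the bulk of the empty droplets lay above 100 UMIs, so that window caught few of them. The mean at barcode ranks 45000 to 90000 was 277, 138 and 140 UMIs in these libraries, against 71.9 and 55.0 in libraries 1 and 2.

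The DNA just before 4 of the genes is shown because these members were highest in 1 segment with a clear step to the next: Slc12a1 and Umod in TAL, Slc12a3 in DCT and Aqp2 in PC. The sequences run 5′ to 3′ on the gene's strand, end at the base before the annotated transcripts, and come from the RefSeq promoter table for GRCm38.p6, in which 9 of the 10 members had an entry. Capitals mark matches on either strand to 4 short motifs, GTTAAT, which is the core of HNF1 sites, AGATAA for the GATA factors, TGACG as the core of the cAMP response element, and TATAAA for the TATA box. They lie at chr2:125152350-125152504 (+) for Slc12a1, chr7:119479283-119479512 (-) for Umod, chr8:94328958-94329200 (+) for Slc12a3 and chr15:99578806-99579054 (+) for Aqp2.
Slc12a1: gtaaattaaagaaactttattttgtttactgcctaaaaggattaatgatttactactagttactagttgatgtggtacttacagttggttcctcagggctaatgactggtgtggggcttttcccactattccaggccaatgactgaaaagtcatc
Umod: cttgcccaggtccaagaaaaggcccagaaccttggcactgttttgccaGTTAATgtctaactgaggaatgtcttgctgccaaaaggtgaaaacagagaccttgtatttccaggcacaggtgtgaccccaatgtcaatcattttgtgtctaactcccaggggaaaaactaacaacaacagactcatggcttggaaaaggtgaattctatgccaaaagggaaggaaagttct
Slc12a3: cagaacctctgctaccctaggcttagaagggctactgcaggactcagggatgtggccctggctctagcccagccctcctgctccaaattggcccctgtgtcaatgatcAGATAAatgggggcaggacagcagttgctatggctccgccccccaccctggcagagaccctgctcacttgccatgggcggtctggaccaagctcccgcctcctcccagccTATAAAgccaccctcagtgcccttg
Aqp2: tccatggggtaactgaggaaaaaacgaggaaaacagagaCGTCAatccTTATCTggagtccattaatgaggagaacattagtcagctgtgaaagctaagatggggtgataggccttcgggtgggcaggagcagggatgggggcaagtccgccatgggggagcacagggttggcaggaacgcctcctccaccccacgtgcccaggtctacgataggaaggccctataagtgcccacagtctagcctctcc
Umod carried GTTAAT from 202 to 197 bases before its RefSeq start, Slc12a3 carried AGATAA from 142 to 137 and TATAAA from 32 to 27 bases before it, and Aqp2 carried the reverse strand of TGACG from 211 to 207 and of AGATAA from 202 to 197. Slc12a1 held none of the 4 in the 155 bases shown. Among 32851 start sites with 250 upstream bases, 6.43% held GTTAAT, 9.99% AGATAA, 17.8% TGACG and 12.4% TATAAA. These are matches of letters and not bound sites.

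Along the nephron, 3 of the 10 members were at least 4-fold higher in their textbook segment than in every other nephron class. These were Slc12a1 and Umod in TAL, where 0.334% of genes met the same rule, and Slc12a3 in DCT, where 0.344% did. In PC 0.679% of genes and in the proximal tubule 3.46% met it, and none of the members assigned there did. Aqp2 fell just short, at 1.99 on the log2 scale (1.86 to 2.11) over CNT. Scnn1a and Scnn1g did not have their highest pooled level in PC, and Kcnj1 did not have it in TAL. For Scnn1g, PC was below CNT in libraries 2, 3 and 4. In library 5 the 15 PC, at 278 CPM (200 to 376), were above CNT at 92.8 CPM. For Scnn1b the pooled step from CNT to PC was −0.22 on the log2 scale (−0.47 to 0.02), but the libraries went both ways, with PC below CNT in libraries 2 and 3 and above it in library 5. The pooled level of Aqp1 was higher in the few thin limb cells than in the proximal tubule. Between libraries with 20 or more cells of that segment, the highest level was at least 4 times the lowest for 3 of the 10, Slc12a1, Scnn1b and Aqp2. Of all genes measured, 9.04% in TAL, 8.73% in DCT, 7.21% in PC and 13.3% in the proximal tubule spread as far.

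**Figure D1:**
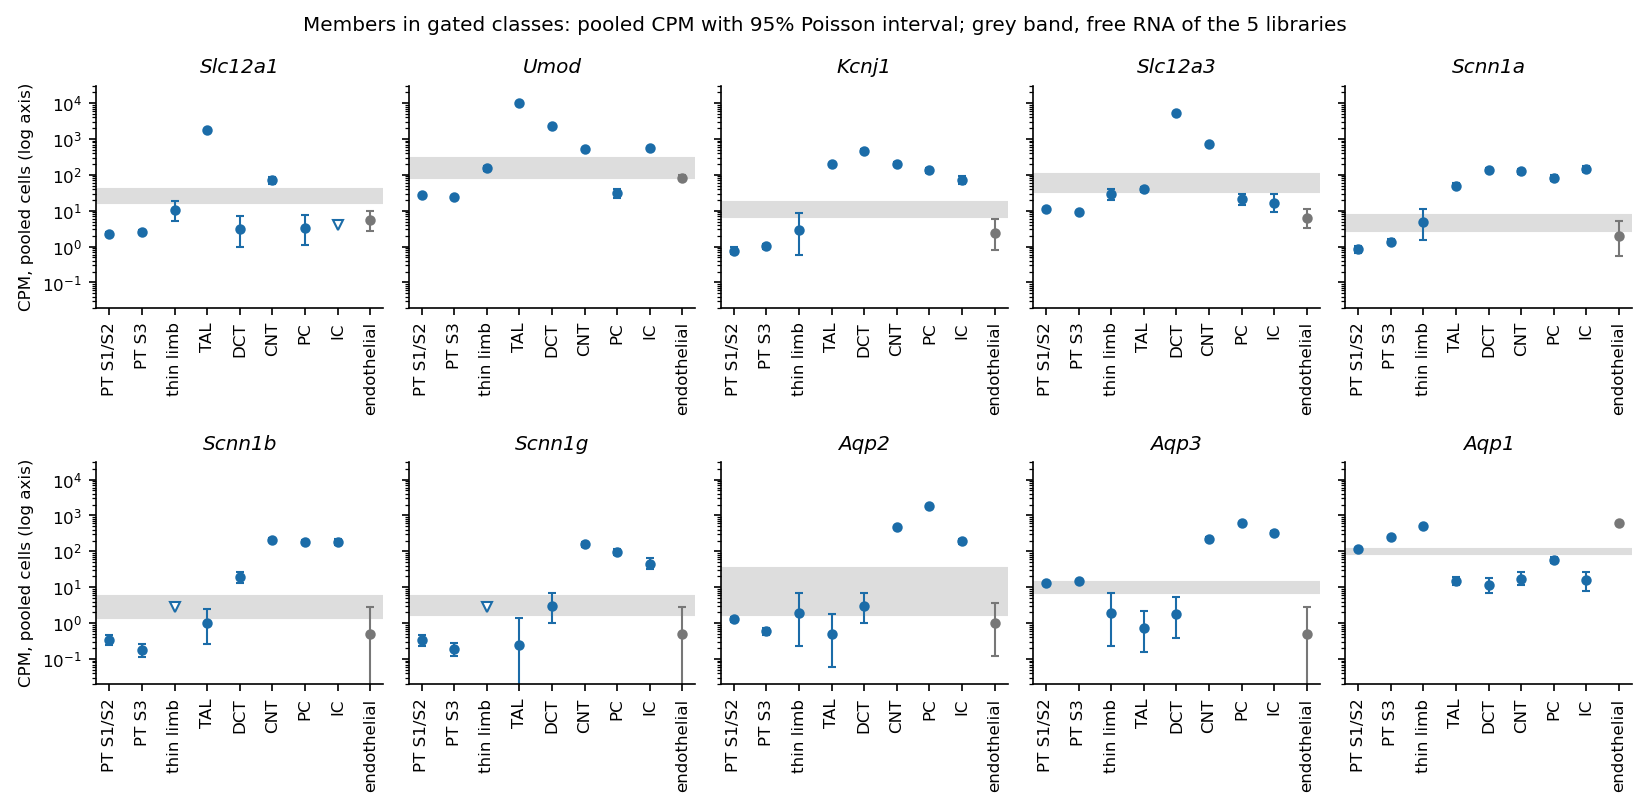
Pooled CPM (log axis) of each of the 10 members in the nephron classes, the proximal tubule split into S1/S2 and S3 cells, and in endothelial cells (grey), with exact Poisson 95% intervals for counting error. The grey band spans the free RNA of the libraries in barcodes of 10 to 100 UMIs where it was above 0, and an open triangle marks the level that 3 counts would give in a class with 0. Slc12a1 stood at 1796 CPM in TAL and 70.7 CPM in CNT, Slc12a3 at 5293 CPM in DCT and 732 CPM in CNT, and Aqp2 at 1854 CPM in PC and 467 CPM in CNT.

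Slc12a1 lies on chromosome 2, bases 125152505 to 125230002 (+). With segments set by the marker gate, it had the largest pooled step between its own segment and the next class among the 10 members. Its pooled level was 1796 CPM (1755 to 1838) in TAL and 70.7 CPM (57.3 to 86.2) in CNT, the next class, a step of 4.67 on the log2 scale (4.38 to 4.97). Without library 3, which holds 314 of the 565 TAL cells, the level in TAL was 3521 CPM and the step 5.07. In the remaining nephron classes it lay between 0 and 10.6 CPM, and in IC it was at 0, where 3 counts would have been 3.91 CPM. A UMI was seen in 78.6% of TAL cells (74.97 to 81.9%, exact binomial), where the median cell held 6148 UMIs, and in 1.01% of T and NK cells, which lack the cotransporter and held 1738 UMIs in the median. With each cell thinned to 1000 UMIs the shares were 50.3% and 0.544%.

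Within TAL the level of Slc12a1 differed widely between libraries. It was 3575 CPM in library 1, 3403 CPM in library 2, 345 CPM in library 3, 2127 CPM in library 4 and 4922 CPM in library 5. Library 3 was the lowest and no interval overlapped its own, 321 to 371 CPM. The highest level was 14.3 times the lowest, 3.83 on the log2 scale (3.70 to 3.97), whereas the median gene measured in TAL spread by 2.12 times and 9.04% of such genes reached 4-fold. Leaving out library 3 brought the spread of Slc12a1 to 2.31 times, and leaving out library 5 to 10.4 times. With 3 markers required the spread was 8.96 times, and at no more than 10% mitochondrial UMIs it was 9.37 times.

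The low value of library 3 was not carried by a few cells. The median TAL cell held 182 CPM of Slc12a1 in library 3 and 1044 CPM in library 4, against 3468, 3832 and 4736 CPM in libraries 1, 2 and 5. No UMI of Slc12a1 was captured in 110 of 314 TAL cells in library 3, 4 of 24 in library 4 and 2 or 3 in each of the other libraries, and a cell with 0 UMIs may still express it.

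Umod (chromosome 7, bases 119462711 to 119479282, minus strand) was also highest in TAL but reached further down the tubule. It stood at 10292 CPM (10194 to 10392) in TAL, 2304 CPM (2232 to 2378) in DCT, 561 CPM in IC, 525 CPM in CNT, 152 CPM in the thin limb, 30.2 CPM in PC and 26.1 CPM in the proximal tubule. The step from DCT to TAL was 2.16 on the log2 scale (2.11 to 2.21). The pooled PC, proximal tubule and thin limb cells were below the free RNA of 243 CPM, and the pooled IC and CNT cells were above it. In library 3 the thin limb, at 246 CPM, was not below the 212 CPM of that library's free RNA. In CNT, Umod ran from 31.3 CPM in library 2, below the 250.3 CPM of that library's free RNA, to 893 CPM in library 5, a spread of 28.5 times. In IC, library 1, at 160 CPM, was below its free RNA of 292 CPM. A UMI of Umod was seen in 97.9% of TAL cells, 87.5% of DCT cells and 6.08% of T and NK cells, and after thinning in 91.6%, 66.4% and 3.45%.

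By library, Umod in TAL was 14204, 15141, 6819, 15966 and 11766 CPM from library 1 to library 5. Library 3 was again lowest, but the spread was 2.34 times, close to the 2.12 times of the median gene, and 1.36 times without library 3. The number of Slc12a1 UMIs per Umod UMI in TAL cells, a ratio of UMIs from the same cells, was 0.252 in library 1, 0.225 in library 2, 0.0506 (0.0470 to 0.0545) in library 3, 0.133 in library 4 and 0.418 (0.391 to 0.447) in library 5. No interval overlapped another, the nearest pair being 0.241 to 0.263 in library 1 and 0.215 to 0.235 in library 2. In thinned cells Slc12a1 and Umod were seen together in 88.9%, 83.3%, 21.1%, 60.9% and 94.5% of TAL cells, while Umod was seen with or without Slc12a1 in 96.7%, 93.9%, 88.2%, 95.7% and 98.2%.

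**Figure D2:**
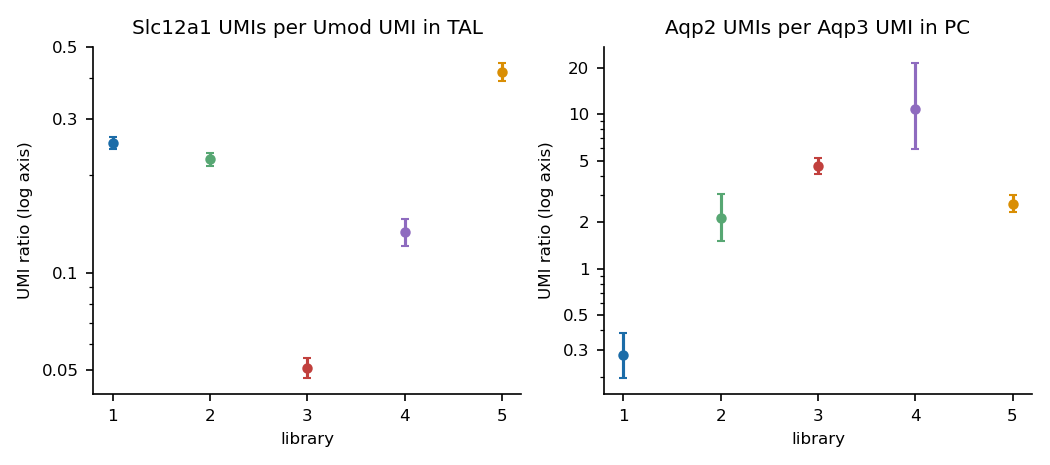
Slc12a1 UMIs per Umod UMI in TAL cells and Aqp2 UMIs per Aqp3 UMI in PC, by library on a log axis, with exact 95% intervals for counting error. The ratio in TAL was 0.0506 in library 3 and 0.418 in library 5, and the ratio in PC was 0.277 in library 1 and 4.60 in library 3.

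The TAL cells of the libraries also lay in different expression clusters, built without the 10 members. In library 3, 307 of 314 and in library 4, 23 of 24 TAL cells were in cluster 11, led by Mt2, Lcn2 and Mt1. In libraries 1, 2 and 5, 61, 44 and 55 TAL cells were in cluster 17, led by Egf, Wfdc15b and Ppp1r1a. Within cluster 11 Slc12a1 was 3131 CPM in library 1 (39 cells), 1754 CPM in library 2 (26 cells), 344 CPM in library 3 and 2133 CPM in library 4, so library 3 stood lowest there too. Other measures moved with it. The 6 TAL markers of the gate summed to 2899, 2747, 975, 1999 and 4922 CPM from library 1 to library 5, with Cldn10 and Wfdc15b lowest in library 3, while Cldn19 (372, 281, 214, 251 and 257 CPM) and Ptger3 (108, 189, 154, 150 and 300.0 CPM) moved less. The injury gene Spp1 was 21896, 30121, 71044, 44944 and 2933 CPM in the same cells and Lcn2 963, 1864, 3193, 2219 and 63.2 CPM, both highest in library 3 and lowest in library 5. The 8 genes of the injury list summed to 26739, 35379, 80304, 50919 and 3189 CPM. Clu, Havcr1 and Krt20 were likewise highest in library 3, but Sox9 (77.0 CPM in library 1 and 49.5 CPM in library 3), Vcam1 (18.3 CPM in library 2 and 0.454 CPM in library 3) and Cdkn1a (194 CPM in library 4 and 107 CPM in library 3) were not. The part of any of these in the level of Slc12a1 was not tested.

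Kcnj1 (chromosome 9, bases 32372493 to 32399197, plus strand) was spread over the distal nephron. It was highest in DCT, at 477 CPM (444 to 511), followed by CNT at 202 CPM (179 to 227), TAL at 195 CPM (182 to 210), PC at 133 CPM (115 to 153) and IC at 72.9 CPM (55.1 to 94.7). CNT and TAL did not differ beyond their intervals. This order is that of the pooled cells. In library 5, PC, at 582 CPM (467 to 717), stood above TAL at 335 CPM. In library 4, TAL was 198 CPM, CNT 144 CPM and DCT 120 CPM, with 6 DCT cells. In library 3, DCT, at 149.997 CPM, was not above CNT. There the 48 CNT cells of cluster 24 held 209 CPM (170 to 255) and the 81 of cluster 11 held 125 CPM (94.5 to 162). The proximal tubule held 0.911 CPM and the thin limb 2.88 CPM. A UMI was seen in 75.8% of DCT cells, 51.2% of TAL cells and 0.422% of T and NK cells, and after thinning in 36.1%, 14.99% and 0.363%. In TAL it was 350.1, 319, 91.8, 198 and 335 CPM from library 1 to library 5, a spread of 3.81 times with library 3 again lowest. Without library 3 the pooled level in TAL was 319 CPM and the spread 1.77 times. In DCT it was 612, 761, 149.997, 120 and 711 CPM, with libraries 3 and 4 below and apart from the other 3, library 4 on 6 cells.

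Slc12a3 (chromosome 8, bases 94329201 to 94366214, plus strand) marked DCT cells. Its pooled level was 5293 CPM (5182 to 5405) in DCT and 732 CPM (688 to 779) in CNT. In every other nephron class the pooled level was between 9.86 and 39.7 CPM, below the 45.0 CPM of free RNA over all libraries. In library 3, TAL, at 66.8 CPM, was not below the 57.9 CPM of that library's free RNA. The step from CNT to DCT was 2.85 on the log2 scale (2.76 to 2.95). A UMI was seen in 96.5% of DCT cells and 37.1% of CNT cells, and in 1.18% of T and NK cells. Thinning left 94.96%, 26.6% and 0.907%. By library it was 7568, 6420, 2995, 1517 and 6948 CPM in DCT. Over the 4 libraries with 20 or more DCT cells the spread was 2.53 times, where 8.73% of genes reached 4-fold and the median gene spread by 2.02 times. Library 3 was lowest of these, and library 4 was lower still on 6 cells. The spread was 1.18 times without library 3. The DCT cells of library 3 were mainly in cluster 11 (64 of 71), and those of libraries 1, 2 and 5 in cluster 17 (27, 27 and 116 cells). Within cluster 11 Slc12a3 was 2933 CPM (2792 to 3080) in library 3, 6325 CPM (5774 to 6913) in the 4 cells of library 1 and 1216 CPM (988 to 1481) in the 5 cells of library 4. Within cluster 17 the 4 DCT cells of library 3 held 5639 CPM (4664 to 6759), which overlapped library 2 at 6706 CPM (6320 to 7110). The 6 DCT markers of the gate summed to 1897, 2516, 562, 373 and 3714 CPM, lowest in the same 2 libraries. Spp1 in these cells was 6801, 4215, 44796, 21693 and 1021 CPM and Lcn2 249, 49.98, 2030.1, 3612 and 1.62 CPM, both highest in libraries 3 and 4. The whole injury list summed to 9636, 6331, 57444, 35995 and 2021 CPM, while Sox9 (522 CPM) and Vcam1 (33.3 CPM) were highest in library 2, and Cdkn1a in library 3 (176 CPM) was below its level in libraries 1, 4 and 5 (264, 482 and 201 CPM). The part of these genes, of cell state or of the gate in the level was not tested.

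**Figure D3:**
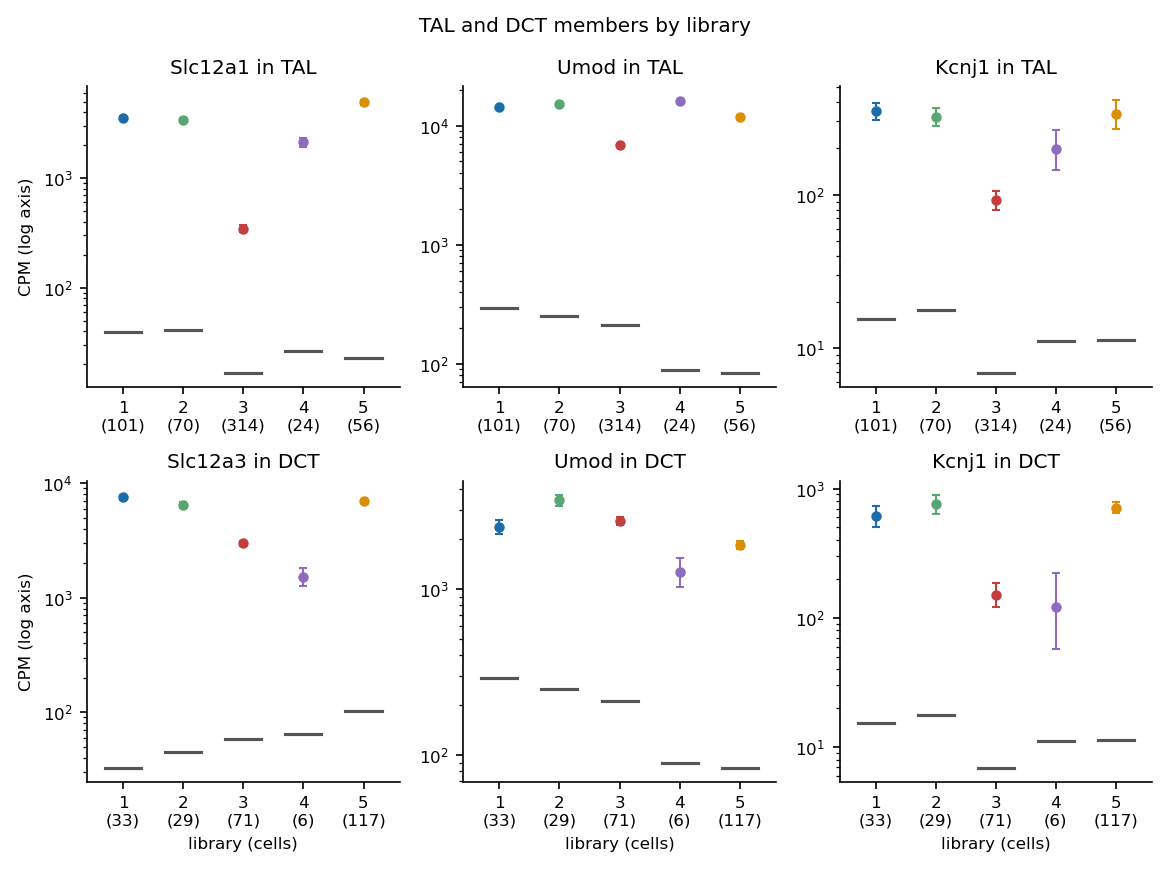
CPM of Slc12a1, Umod and Kcnj1 in TAL and of Slc12a3, Umod and Kcnj1 in DCT by library (log axis), with exact Poisson 95% intervals, the free RNA of each library as a short line and the number of cells under each library. In TAL, library 3 was the lowest for Slc12a1 (345 CPM), Umod (6819 CPM) and Kcnj1 (91.8 CPM).

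Both cotransporters were rarely seen in 1 cell. In thinned DCT cells Slc12a3 and Slc12a1 were seen together in 0 of 238, with an upper bound of 1.54%, and in thinned TAL cells in 4 of 547 (0.731%, 0.200 to 1.86%). With or without its partner, Slc12a1 was seen in 0 of the 238 DCT cells and Slc12a3 in 12 of the 547 TAL cells. The joint counts were thus bound to be low and cannot show whether the 2 genes exclude each other within a cell. Slc12a3 and Umod were seen together in 154 of the 238 DCT cells (64.7%, 58.3 to 70.8%). Umod in DCT was 2369, 3432, 2574, 1264 and 1838 CPM from library 1 to library 5, so unlike Slc12a3 and Kcnj1 it was not at its lowest in library 3 among the libraries with 20 or more cells.

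The 3 ENaC subunits had different ranges. Scnn1a (chromosome 6, bases 125320659 to 125344943, plus strand), which codes for the alpha subunit, was present from TAL to the collecting duct, with 142 CPM (117 to 171) in IC, 136 CPM (119 to 155) in DCT, 125 CPM (107 to 146) in CNT, 80.6 CPM (66.8 to 96.4) in PC and 50.3 CPM (43.7 to 57.7) in TAL. IC, DCT and CNT did not differ beyond their intervals. This order is that of the pooled cells. Without library 3, PC held 121 CPM, and in library 5 PC, at 285 CPM (206 to 383), stood above DCT at 161 CPM (131 to 196) and CNT at 151 CPM (80.3 to 258). The IC class also held the PC markers of the gate at 902 CPM, against 3652 CPM in PC. It held the CNT markers at 3952 CPM, against 32242 CPM in CNT. From library 1 to library 5 there were 15, 9, 47, 3 and 15 IC. The part of RNA from other classes in the IC levels of any member was not tested. Scnn1b (chromosome 7, bases 121865038 to 121918514, plus strand), the beta subunit, was 208 CPM (184 to 233) in CNT, 184 CPM (155 to 216) in IC and 178 CPM (157 to 201) in PC, with overlapping intervals, and dropped to 19.3 CPM (13.2 to 27.2) in DCT and 0.987 CPM in TAL. Scnn1g (chromosome 7, bases 121734479 to 121768475, plus strand), the gamma subunit, was 157 CPM (136 to 179) in CNT, 96.7 CPM (81.6 to 114) in PC, 45.6 CPM (31.7 to 63.4) in IC and 3.01 CPM in DCT. Weighting each cell equally placed Scnn1g higher in PC than in CNT, by 0.12 on the log2 scale, while the pooled UMIs placed it lower, by −0.70. The step of Scnn1b from CNT to PC also turned, to 0.39 with each cell weighted equally, 0.14 with 3 markers required and 0.12 without the 24 PC of cluster 26.

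A UMI of every subunit was seen in 38 of 245 CNT cells (15.5%, 11.2 to 20.7%), 32 of 134 PC (23.9%, 16.9 to 32.0%) and 10 of 89 IC (11.2%, 5.52 to 19.7%). None of 256 DCT cells and none of 565 TAL cells held all 3, with upper bounds of 1.43% and 0.651%, and 1 of 37736 proximal tubule cells did. Of the DCT cells, 109 held 1 subunit and 18 held 2. Among T and NK cells, at a median of 1738 UMIs, 0 of 1185 held all 3. The shares with all 3 were taken without thinning, and the median cell held 3875 UMIs in CNT, 8318.5 in PC and 7732 in IC. After thinning, a UMI of any subunit was seen in 30.2% of CNT cells, 27.1% of PC and 22.2% of IC. Whether PC and CNT differ in the share with all 3 at equal depth was not tested.

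By library, PC held Scnn1a at 75.4, 60.1, 46.7, 105 and 285 CPM, Scnn1b at 289, 65.1, 112, 221 and 483 CPM, and Scnn1g at 126, 75.1, 67.7, 23.3 and 278 CPM, from library 1 to library 5. Library 5, with 15 PC, was highest for each subunit, and library 4 rests on 4 cells. Over libraries 1 to 3, with 20 or more PC each, Scnn1b spread by 4.44 times, Scnn1g by 1.86 times (1.11 times without library 1) and Scnn1a by 1.61 times, where the median gene spread by 1.72 times and 7.21% of genes reached 4-fold. With library 5 these spreads were 7.42, 4.11 and 6.09 times. Without library 1 the spread of Scnn1b was 1.72 times, and without library 2 it was 2.58 times. Of the PC, 15 of 27, 10 of 22 and 42 of 66 in libraries 1 to 3 lay in cluster 24, and in those cells Scnn1b was 547 CPM (425 to 693), 219 CPM (117 to 375) and 169 CPM (135 to 210), so library 3 and not library 2 was lowest there. In CNT, Scnn1b was 332, 337, 180, 294 and 104 CPM and Scnn1g 122, 306, 146, 151 and 92.8 CPM, and neither followed the order of the libraries in PC. Of the CNT cells, 4 of 21, 17 of 25, 48 of 147, 14 of 20 and 3 of 32 lay in cluster 24. In those cells Scnn1b was 576, 356, 313, 379 and 166 CPM and Scnn1g 269, 331, 241, 180 and 290 CPM.

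Aqp2 (chromosome 15, bases 99579055 to 99584547, plus strand) was highest in PC at 1854 CPM (1786 to 1925), followed by CNT at 467 CPM (432 to 505) and IC at 194 CPM (164 to 228). In every other nephron class it was between 0.493 and 3.01 CPM, below the 8.05 CPM of free RNA. A UMI was seen in 56.0% of PC (47.1 to 64.5%), whose median cell held 8318.5 UMIs, in 23.3% of CNT cells and in 0.844% of T and NK cells, and after thinning in 47.3%, 17.2% and 0.544%. Of the IC, 14 of 89 held a UMI of Aqp2. After thinning, the share of IC with Aqp2 was 25% in library 1, 15.4% in library 5 and 0 in libraries 2 to 4, on 8, 45 and 3 cells. Aqp3 (chromosome 4, bases 41092722 to 41098183, minus strand), the exit path on the basolateral side, was 616 CPM (577 to 657) in PC, 320.3 CPM (281 to 363) in IC, 219 CPM (195 to 246) in CNT and 14.0 CPM in the proximal tubule. The step from IC to PC was 0.94 on the log2 scale (0.74 to 1.15). The shares of cells with a UMI were 61.9% in PC, 52.8% in IC and 1.60% in T and NK cells, and after thinning 41.9%, 18.5% and 0.816%.

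By library, Aqp2 in PC was 193 CPM (141 to 257), 531 CPM (434 to 642), 1914 CPM (1820 to 2011), 1515 CPM (1265 to 1798) and 6101 CPM (5713 to 6508), from library 1 to library 5. Libraries 1 and 2 were below and apart from the other 3, and library 5 was apart above them. Over libraries 1 to 3 the spread was 9.94 times, 3.31 on the log2 scale (2.89 to 3.77), and with library 5 and its 15 cells it was 31.7 times. Without library 1 it was 3.61 times, and without library 3 it was 2.76 times. All 15 PC of library 5 and 3 of the 4 of library 4 were in cluster 24. In the PC of that cluster Aqp2 was 369.9 CPM (271 to 493), 1790 CPM (1465 to 2165), 3168 CPM (3013 to 3330), 2346 CPM (1960 to 2786) and 6101 CPM, so library 1 was still apart below and library 5 apart above, but the intervals of libraries 2 and 4 overlapped. The 6 proximal tubule markers summed to 1721, 2578, 604, 862 and 1098 CPM over all PC, highest in libraries 1 and 2. The 6 PC markers of the gate summed to 2520, 1952, 3151, 3542 and 10448 CPM, highest in library 5, as were Aqp2, Aqp3 and each ENaC subunit. The injury list summed to 11805, 13396, 49571, 28207 and 754 CPM, lowest in library 5. Their part in the levels of these members was not tested.

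Aqp3 was also highest in library 5 but otherwise did not follow this order. It was 695, 250.3, 416, 140 and 2323 CPM in the same cells, a spread of 2.78 times over libraries 1 to 3 and of 9.28 times with library 5. Over libraries 1 to 3 it was 1.66 times without library 1 and 1.67 times without library 2. In the PC of cluster 24 Aqp3 was 1327 CPM (1132 to 1545), 810 CPM (598 to 1074) and 650 CPM (580 to 725) in libraries 1 to 3, so library 3 was lowest there, with an interval that overlapped that of library 2. The number of Aqp2 UMIs per Aqp3 UMI was 0.277 (0.195 to 0.386), 2.12 (1.501 to 3.03), 4.60 (4.09 to 5.19), 10.8 (5.99 to 21.5) and 2.63 (2.32 to 2.98), lowest in library 1. Thinned PC with both water channels made up 16%, 22.7%, 33.3%, 0% and 93.3% of cells, the 0% of library 4 on 4 cells.

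The cells that passed the PC gate were not uniform. Of the 134, 24 lay in cluster 26, led by Psca, Upk3a and Krt19. None of these genes is a PC marker, and Upk3a codes for a uroplakin of the urothelium, so the data go against the PC label there. These 24 cells, 19 of them in library 3, held 0 UMIs of Aqp2. A further 25 lay outside clusters 24 and 26, with 10 in each of libraries 1 and 2 and 5 in library 3, and 16 of the 25 were in clusters with proximal tubule markers. In the 19 cells of library 3, where 0 UMIs allow up to 12.7 CPM, Aqp3 was 65.5 CPM (39.4 to 102). Without this cluster the pooled PC level was 2430.3 CPM for Aqp2, 791 CPM for Aqp3, 94.2 CPM for Scnn1a, 226 CPM for Scnn1b and 122 CPM for Scnn1g. By library Aqp2 in PC was then 200, 602, 2977, 2346 and 6101 CPM, the step from CNT was 2.38 on the log2 scale, which is past 4-fold, and the spread over libraries 1 to 3 was 14.9 times.

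**Figure D4:**
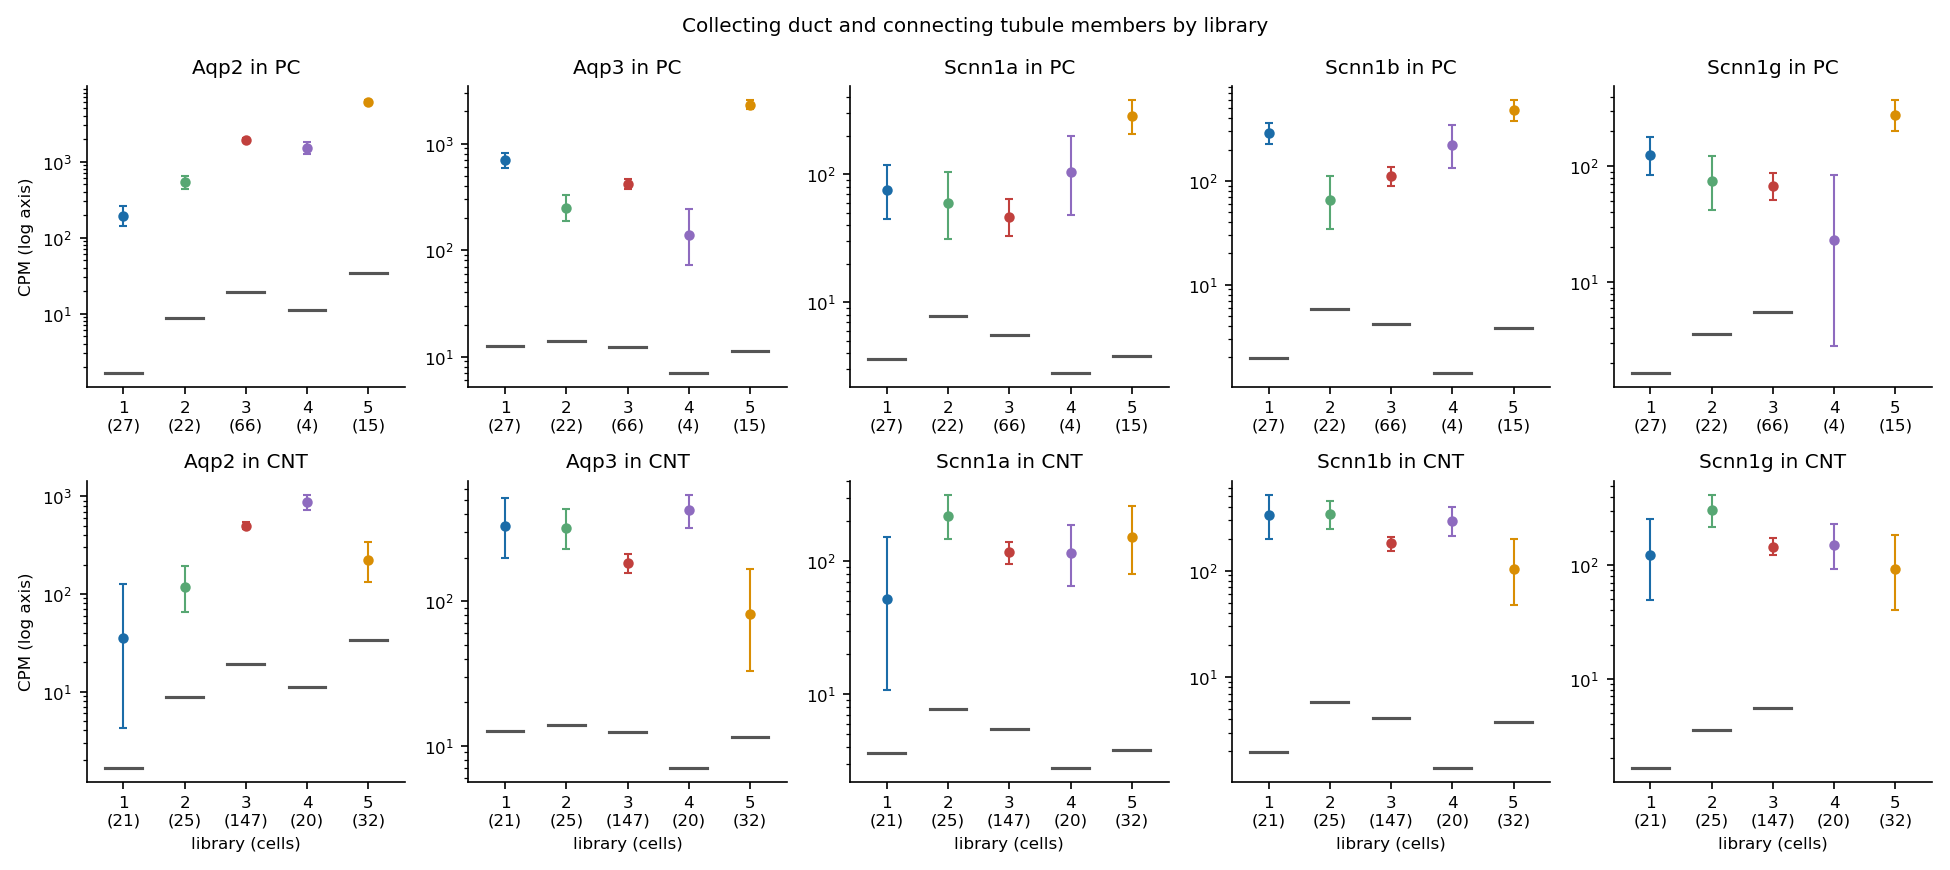
CPM of Aqp2, Aqp3, Scnn1a, Scnn1b and Scnn1g in PC and in CNT cells by library (log axis), with exact Poisson 95% intervals, the number of cells under each library and its free RNA as a short line, which is missing where it was 0. Aqp2 in PC ran from 193 CPM in library 1 to 6101 CPM in library 5, and libraries 4 and 5 hold 4 and 15 PC.

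Slc12a3 and Aqp2 were seen in separate cells of the CNT class, which was mixed. In thinned CNT cells, 51 of 192 held Slc12a3, 33 held Aqp2 and 0 held both, with an upper bound of 1.90%. Most of the 245 CNT cells lay in 3 clusters, with 93 cells in cluster 11, 54 in cluster 17 and 86 in cluster 24, led by Atp6v1g3, Hsd11b2 and Fxyd4. Cluster 11 also held 396 of 565 TAL cells, and cluster 17 held 175 of 256 DCT cells. The CNT class was thus a mixture, and each step against CNT given above is a step against that mixture. Within cluster 24 the CNT cells held Aqp2 at 76.9, 127, 1011, 1218 and 745 CPM from library 1 to library 5. In the 81 CNT cells of library 3 in cluster 11, Slc12a3 was 1407 CPM, Aqp2 8.93 CPM and Scnn1b 51.4 CPM. In the 48 CNT cells of library 3 in cluster 24, these genes were at 42.2, 1011 and 313 CPM. Over the whole class the levels by library were 1591, 196, 703, 158 and 2215 CPM for Slc12a3 and 35.0, 118, 502, 876 and 220 CPM for Aqp2. The median depth of CNT cells also differed, at 1125, 1179, 5612, 6466.5 and 1190.5 UMIs. Which part of these differences came with depth and which with the clusters was not tested.

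Aqp1 (chromosome 6, bases 55336432 to 55348555, plus strand) had its highest pooled level outside the tubule epithelium, at 600 CPM (566 to 634) in 345 endothelial cells, though not in libraries 1 and 2, where the thin limb cells were above them and the S3 cells were above or level with them. Within the nephron it was 496 CPM (454 to 540) in the 81 thin limb cells and 194 CPM (192 to 196) in the proximal tubule, a step of −1.35 on the log2 scale (−1.48 to −1.23) from thin limb to proximal tubule. PC held 57.8 CPM and TAL, DCT, CNT and IC 11.5 to 17.5 CPM, below the free RNA of 94.3 CPM. Proximal tubule cells with more S3 than S1 and S2 marker signal, the last straight stretch, held 252 CPM (249 to 254), and those with more S1 and S2 signal 120 CPM (118 to 122).

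By library, the S3 cells held 260, 275, 199, 204 and 272 CPM and the S1 and S2 cells 103, 127, 118, 132 and 106 CPM, so the S3 cells were higher in each of the 5. In the whole proximal class Aqp1 was 224, 219, 138, 167 and 230 CPM, a spread of 1.67 times, next to 1.65 times for the median gene of this class, where 13.3% of genes reached 4-fold. The thin limb held 1964 CPM (7 cells), 239 CPM (22 cells), 578 CPM (45 cells), 244 CPM (6 cells) and 0 (1 cell). Endothelial cells held 252, 127, 811, 2867 and 1993 CPM, with libraries 4 and 5, on 17 and 19 cells, above the rest. The 81 thin limb cells were scattered, with 46 in cluster 11 and the others in 8 more clusters. A UMI of Aqp1 was seen in 46.9% of them (35.7 to 58.3%), in 51.6% of proximal tubule cells and in 62.6% of S3 cells, and in library 2 the thin limb level was below that of S3 cells.

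**Figure D5:**
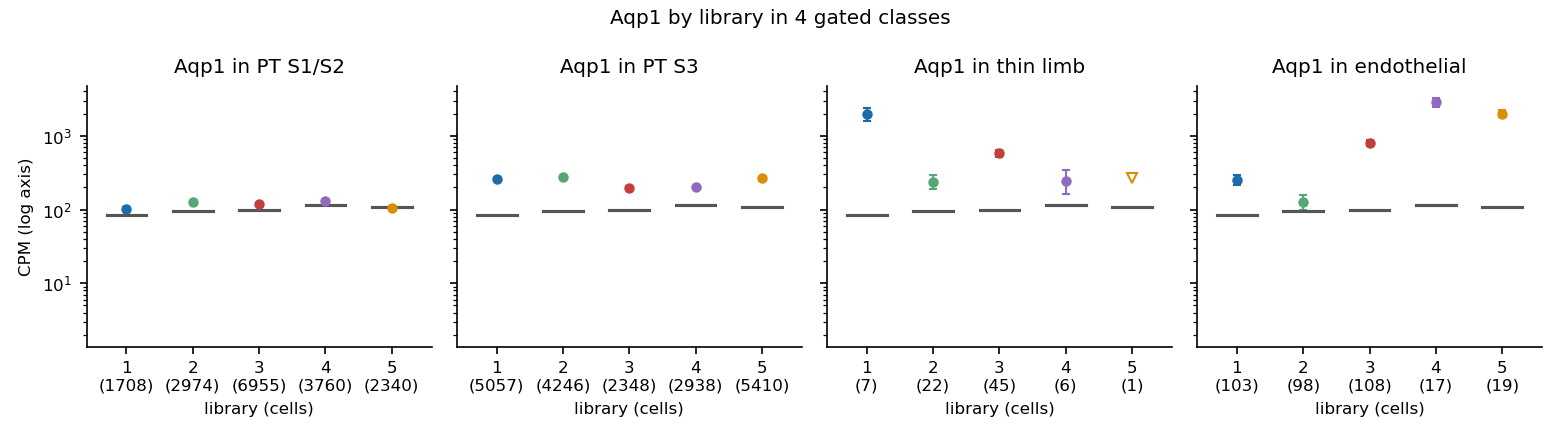
CPM of Aqp1 by library in proximal tubule cells with more S1 and S2 signal, in those with more S3 signal, in thin limb cells and in endothelial cells (log axis shared by the panels), with exact Poisson 95% intervals and the free RNA of each library as a short line. The open triangle is the level of 3 counts in the 1 thin limb cell of library 5. S3 cells were above S1 and S2 cells in each library, from 199 against 118 CPM in library 3 to 275 against 127 CPM in library 2.

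Set against free RNA, 9 of the 10 members were at least 2-fold higher in their textbook segment in each library with 20 or more of its cells. The same was true of 8.38% of genes in TAL, 12.1% in DCT, 22% in PC and 3.35% in the proximal tubule. Aqp1 was the exception. Free RNA held it at 84.9, 96.4, 98.0, 116 and 110.0 CPM, and the proximal class was above that by 1.40, 1.18, 0.49, 0.52 and 1.07 on the log2 scale. The proximal class made up 65.3% of kept cells, and the distal and thin limb classes together 2.37%. The part of these shares in the make-up of free RNA, and so in this count, was not tested. Slc12a1 was above free RNA in TAL by 4.38 (3.57 to 5.34) in library 3 and by 6.32 to 7.76 in the other libraries. Free RNA read from ranks 45000 to 90000, the window used to call and gate cells, gave the same count of 9. Its use for this count was chosen after the data were seen.

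Of 46 genes from lists of channel partners and regulators, 37 had 50 or more UMIs in their highest nephron class. Of the 37, 2 were at least 4-fold higher in that class than in the next, against 9.43% of all genes measured by the same rule. These were Klhl3 in DCT and Aqp6 in IC, and Aqp6 is an IC marker of the gate, so its step was set by the assignment. The highest class of the 37 genes was DCT for 11, IC for 7, the proximal tubule for 6, TAL for 5, PC for 4, CNT for 3 and the thin limb for 1. Of all 6871 genes measured, 786 were highest in DCT, 649 in IC, 2578 in the proximal tubule, 551 in TAL, 834 in PC, 236 in CNT and 1237 in the thin limb. Among partners in salt reabsorption, Atp1b1 (3443 CPM), which codes for the beta subunit of the sodium pump, and the pump modulator Fxyd2 (12779 CPM) were highest in DCT. Among the kinases and adaptors that control Slc12a3, Wnk1 was 1620 CPM in DCT and 641 CPM in CNT, the ubiquitin ligase scaffold Cul3 was 98.9 CPM in IC and 89.2 CPM in DCT, Wnk4 295 CPM in DCT and 98.9 CPM in TAL, and Klhl3, the ubiquitin ligase adaptor that recognises WNK kinases, 272 CPM in DCT and 60.5 CPM in CNT. Klhl3 in DCT differed by 18.2 times between library 5 (497 CPM) and library 3 (27.3 CPM), and library 3 was lowest of the libraries with 20 or more DCT cells for both Klhl3 and Slc12a3.

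Among genes of aldosterone and ENaC control, Hsd11b2, the enzyme that shields the aldosterone receptor from glucocorticoids, was 1124 CPM in PC, 1031 CPM in CNT and 739 CPM in IC, whereas the kinase Sgk1 (440.1 CPM) and the ENaC-cleaving protease Prss8 (204 CPM) were highest in the proximal tubule. Of the water control list, Aqp11, an intracellular water channel, was 65.8 CPM in the proximal tubule and 22.6 CPM in CNT, and Akap13, which anchors protein kinase A, was 80.7 CPM in the thin limb and 73.0 CPM in TAL. The vasopressin receptor gene Avpr2 was 110 CPM in PC and 33.8 CPM in IC. Aqp6, another intracellular water channel, was 329 CPM in IC and 27.5 CPM in PC. Among potassium channel genes, Kcnk1 was highest in TAL (208 CPM) and Kcne1 in CNT (135 CPM). The parathyroid hormone receptor gene Pth1r was 327 CPM in CNT and 325 CPM in the proximal tubule. Egf, which the distal tubule secretes, was 796 CPM in TAL and 672 CPM in DCT, and in TAL it went from 37.7 CPM in library 3 to 4555 CPM in library 5, a 121-fold spread that put library 3 lowest, as for Slc12a1.

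For each member the 3 genes most like it were taken over 25 groups, each the cells of 1 nephron class in 1 library, by Pearson's r of log2(CPM + 10) among 12265 genes. The groups share libraries and differ in depth, so r is a description. Slc12a1 was most like the TAL gate marker Cldn16 (r = 0.95), then Irx2 and Pla1a (0.89 each). Umod was most like Mrps6 (0.92), Emb (0.90) and Paqr5 (0.89), and Kcnj1 like Hoxd8 (0.95), Tfap2b (0.95) and Hoxb5os (0.94). Slc12a3 was most like Cavin2 (0.90) and the gate markers Emx1 and Sall3 (0.89 each). Among the ENaC subunits, Scnn1a was nearest to Tmem213 (0.96), Grb14 (0.95) and Nudt4 (0.94), Scnn1b to Lix1 (0.95), Hsd11b2 (0.94) and Phactr1 (0.93), and Scnn1g to Cav1 (0.97), Gata2 (0.96) and Kcne1 (0.96). Both Aqp2 (0.94) and Aqp3 (0.95) were nearest to the gate marker Fxyd4, followed by Kcne1 and Cav1 (0.88 each) for Aqp2 and by Gata2 and Spink8 (0.94 each) for Aqp3. Aqp1 was nearest to Slc6a18 (0.94), Cldn2 (0.93) and Hint1 (0.93).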

How the data were processed

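Single-cell 3′ RNA libraries were aligned to mm10 by the authors with Cell Ranger 6.0 and deposited as 1 merged table of raw UMI counts for all barcodes of 5 libraries. No column of that table is tied to a condition. Cells were called here by an upper-quantile step and a test against the ambient profile (false discovery rate 0.01), and cells with under 200 genes or over 25% mitochondrial UMIs were dropped, which left 57828 of 70553. No doublet was removed, and leaving out the highest doublet scores was an alternative. Library totals were 82426945 to 139382799 UMIs.

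A cell entered a class with 2 or more of its markers raised (z above 1) and above free RNA, a mean marker score 1.5 times the next class, and under 50 proximal marker UMIs per 10000. Counts were summed per class and library, as CPM with exact Poisson intervals, log2 ratios with exact binomial intervals and shares with Clopper-Pearson intervals at 95%. With 1 pooled sample there was no test between conditions. Named genes were the members, the 2 genes of each regulator list with the most UMIs in nephron cells, and the 3 genes most like each member. Genes named outside that rule, Wnk4, Klhl3, Hsd11b2, Avpr2 and Aqp6, the leaders of clusters and the markers and injury genes set beside a result, were chosen after their values were seen. The gate and ratios were tested on simulated data. Members and lists were chosen with earlier results of these data known. Clusters were made by Leiden at resolution 1 without the members (scanpy 1.11.5, leidenalg 0.10.2, Python 3.11.15, scipy 1.17.1).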

Additional observations from a re-analysis of the deposited data

Results flagged for a closer look

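Among 29 sets of 4 or 5 libraries with a member's level in 1 class, 6 had a library far from the others by Dixon's ratio. Chance flags about 1 in 20 such sets, and the libraries are not replicates of 1 group. Slc12a1 in CNT cells was 440.6 CPM in library 5, against 52.5, 0, 56.2 and 14.4 CPM in libraries 1 to 4. Umod in the proximal tubule was 58.6 CPM in library 3, against 10.7 to 23.0 CPM in the others. Slc12a3 in TAL cells was 66.8 CPM in library 3, against 4.40 to 15.8 CPM in the others and 57.9 CPM in the free RNA of library 3. Scnn1g in CNT cells was 306 CPM in library 2, against 92.8 to 151 CPM. In the CNT cells of cluster 24 it was 331 CPM (235 to 452) in library 2, with an interval that overlapped each of the others. In the proximal tubule, Scnn1g was 0.635 CPM in library 3, against 0.0946 to 0.187 CPM, and Aqp2 was 2.80 CPM in library 3, against 0.0710 to 0.561 CPM. The proximal values of library 3 were all below its free RNA, which was 212 CPM for Umod, 5.52 CPM for Scnn1g and 19.3 CPM for Aqp2.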

How the results depend on the processing

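Of 395 recomputed levels, ratios and spreads of single members, 242 stayed within the 95% counting interval of the reported value or, for spreads, within 1.5 times of it, 152 moved by more, and 1 whose interval lay off 0 changed its sign: the log2 ratio of Scnn1g in PC to the next class, 0.12 with each cell weighted equally. The same ratio of Scnn1b, whose interval held 0, turned from −0.22 to 0.39 with each cell weighted equally, 0.14 with 3 markers required, 0.12 without cluster 26 and 0.01 without library 2. The 3 members of 10 in their textbook segment became 2 to 4 when 1 library was left out, 2 without library 5, where Umod fell under 4-fold, and 4 without each other library, where Aqp2 joined. The count was also 4 with the gene and mitochondrial filters alone, with 3 markers required, without the highest doublet scores, with each cell weighted equally and without cluster 26, and 3 under the 10% limit and with free RNA subtracted. The count of 9 members above free RNA stayed 9 to 9 over those 5 settings. The 3 members with a 4-fold spread over libraries became 1 to 3 when 1 library was left out, 1 at no more than 10% mitochondrial UMIs, 1 with 3 markers required, and 6 with libraries of 10 or more cells, an alternative chosen after the data were seen. The 10% limit and the 3-marker rule left too few libraries with 20 PC to measure the 5 members assigned there. Naming segments by clusters gave no value, because the first clusters mixed TAL with DCT and CNT with PC and IC. Clustering those cells again, also chosen after the data were seen, named TAL, DCT, IC and thin limb but neither CNT nor PC, so 5 members could be measured, of which 4 were above free RNA. The cells of cluster 26 and the free RNA at ranks 45000 to 90000 were likewise examined after the data were seen. With a pseudocount of 1 in place of 10, the gene most like the member was kept for Slc12a1, Umod, Scnn1a, Aqp2 and Aqp3 and became another for the other 5 members. No paired analysis was possible because the 5 libraries cannot be matched to samples and each condition has 1 sample. Classes under 20 cells in a library, such as PC in libraries 4 and 5, limit what depth can show.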
